A study of Mus musculus with 8 samples.

Results

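Described here are stretches of lamina-associated domain (LAD) that were called in preadipocytes, adipocytes and Tmem120a knockdown adipocytes and not in adipocytes with double knockdown of Tmem120a and Tmem120b. A stretch was taken, base pair by base pair, where the LAD lists of those 3 conditions overlapped and the double knockdown list had no LAD, and merged stretches of at least 8 kb were kept. There were 2649 such stretches on 21 chromosomes, summing to 68.9 Mb, out of 989 Mb in 4380 pieces shared by the LADs of the first 3 lists. With gaps under 50 kb closed in each list there were 987, and with LADs of at least 100 kb only 1578. The 4 lists together hold 19150 LADs. The stretches were thus chosen by the LAD calls of all 4 lists, so their absence from the double knockdown list is what defines them and is not a result. A base pair is called lost or lacked where a list has no LAD, and kept where it has.

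The data were LaminB1-DamID profiles of 3T3-L1, a mouse fibroblast line that turns into fat cells in culture. Preadipocytes were undifferentiated cells at day 0, labelled untreated. The other 3 conditions were cells at day 9 after induction with insulin, dexamethasone, IBMX and rosiglitazone, labelled as carrying a non-target control shRNA (adipocytes), a Tmem120a shRNA, or shRNAs against Tmem120a and Tmem120b, all as stable lines. Each condition has 1 LaminB1-Dam and 1 Dam library, introduced by lentivirus, so no value here has a spread between replicates, no difference was tested, and the lists give positions without read depth or signal strength. A difference between libraries and a difference between conditions therefore cannot be told apart.

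LADs are long, gene-poor, mostly silent regions that contact the lamina under the nuclear envelope, and many hold genes of other lineages. DamID reads that contact by fusing LaminB1 to a bacterial methylase that marks the adenine of GATC, so the signal is read at GATC sites and LAD borders mostly fall at them. Tmem120a and Tmem120b are related membrane proteins of the nuclear envelope that are expressed in fat, and the question behind the double knockdown is what the second paralog adds.

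The borders of the longest stretch of each placement (double knockdown LAD touching both sides, 1 side or neither side) are printed below. Their position at a GATC follows from how DamID is read, and does not measure how sharply lamina contact changed there. Each window is 60 bases of mm9 on the forward strand, 5′ to 3′, with the border GATC in capitals and 28 bases on either side, and none overlaps an annotated exon. The longest of all spans chr10:29369749-29526519, has double knockdown LAD on both sides, and begins at chr10:29369718-29369777 and ends at chr10:29526489-29526548:
start on chromosome 10: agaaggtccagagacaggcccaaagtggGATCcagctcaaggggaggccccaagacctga
end on chromosome 10: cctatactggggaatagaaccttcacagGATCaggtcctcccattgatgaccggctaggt
The longest with double knockdown LAD on 1 side spans chr5:97955917-98112190, begins at chr5:97955886-97955945 where that LAD stops, and ends at chr5:98112160-98112219 where the adipocyte LAD stops:
start on chromosome 5: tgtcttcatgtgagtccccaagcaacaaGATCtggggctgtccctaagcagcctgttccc
end on chromosome 5: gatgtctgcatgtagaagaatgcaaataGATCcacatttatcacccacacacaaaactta
The longest with double knockdown LAD on neither side spans chr1:148565105-148670133, begins at chr1:148565074-148565133 and ends at chr1:148670103-148670162, with the Tmem120a knockdown LAD stopping at both:
start on chromosome 1: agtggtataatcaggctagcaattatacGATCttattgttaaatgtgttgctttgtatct
end on chromosome 1: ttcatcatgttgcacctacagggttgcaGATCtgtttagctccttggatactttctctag

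GATC sites, where DamID can be read, were about as dense in stretches as in other LAD. A stretch had a median of 56 GATC sites, the lowest 10% had 24 or fewer, and 1 of the 2649 had fewer than 10. The density was 2.66 sites per kb, against 2.60 in the 915 Mb that lay in LADs of all 4 lists and 2.51 over the assembly. GATC fragments had a median of 234 bp inside stretches and 246 bp in the LAD of all 4 lists. Unknown bases occurred in 6 stretches.

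Their base composition was close to that of the LAD of all 4 lists. GC content was 39.3% over all stretches and 39.2% in the LAD of all 4 lists, both below the 41.8% of the assembly, and 1683 stretches (63.5%) lay under 40% GC. Stretches that the other lists lacked alone, found by the same rule, were richer in GC, with 41.1% for those absent from the Tmem120a knockdown list, 42.5% for the adipocyte list and 40.1% for the preadipocyte list. Windows of 100 kb with at least 50% of their length in shared LAD were ranked by GC into 5 equal groups. The stretches took 6.10% of the shared LAD in the poorest group and 5.29% in the richest. On autosomes alone they took 5.17% of the shared LAD in the poorest group and 5.10% in the richest, with the groups between them at 4.84% to 5.07%. Ranked by GATC sites on all chromosomes, the windows with the fewest sites lost 5.15% and those with the most lost 6.93%.

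Most stretches were short beside the LADs that held them. The median length was 20.8 kb, the middle 50% ran from 13.0 to 33.1 kb, and the longest reached 157 kb. With gaps under 50 kb closed in each list the median was 39.7 kb, and with LADs of at least 100 kb only 36.6 kb. Those of at least 30 kb numbered 787 (29.7%) and held 54.4% of the length, and 19 reached 100 kb. The 8 kb minimum lay within a continuous range of lengths, as the 3 shortest stretches measured 8002, 8015 and 8020 bp and the 3 longest pieces left out measured 7974, 7991 and 7994 bp. In all, 1126 pieces summing to 5.20 Mb fell below the minimum.

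Many stretches were gaps between LADs of the double knockdown. Double knockdown LAD touched 1295 stretches (48.9%) on both sides, 954 (36%) on 1 side and 400 (15.1%) on neither side. With gaps under 50 kb closed in each list, the share touched on both sides was 24.5%. Median lengths were close, at 19.9, 20.96 and 23.4 kb. What differed was the gap in the double knockdown list around them. With LAD on both sides the stretch is the gap by construction, with LAD on 1 side the gap had a median of 68.2 kb, and with LAD on neither side it had a median of 219 kb, of which the stretch made up a median of 11.3%.

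The ends of the stretches tell which list stopped there. Of 5298 ends, 3544 (66.9%) lay where the double knockdown LAD resumed. The other 1754 lay where another list left its LAD, and in 901 of them (51.4%) the Tmem120a knockdown list alone did so, in 575 (32.8%) the preadipocyte list alone and in 253 (14.4%) the adipocyte list alone. Where a stretch did not end in resumed LAD, it thus most often ran on into sequence that both knockdown lists lacked.

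**Figure D1:**
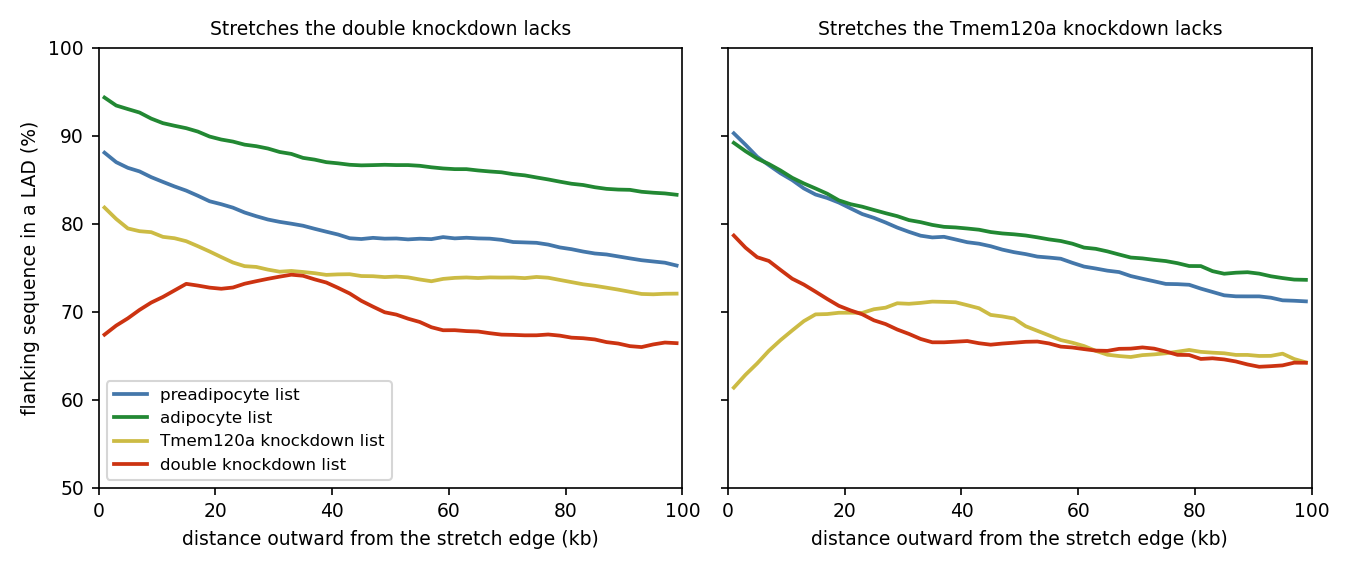
Share of flanking sequence in a LAD of each of the 4 lists (y axis, %) against distance outward from the stretch edge (x axis, kb, in bins of 2 kb, both sides pooled). Left, the 2649 stretches the double knockdown list lacks. Right, the 1784 stretches that the Tmem120a knockdown list alone lacks. In the left panel the adipocyte line is highest throughout and the double knockdown line lowest, closest to the Tmem120a knockdown line at 32 to 36 kb.

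Sequence next to the stretches stayed mostly in LADs, as the plot of flanking sequence shows. Over the 50 kb on either side, 89.4% lay in adipocyte LADs, 81.9% in preadipocyte LADs, 76.4% in Tmem120a knockdown LADs and 72.0% in double knockdown LADs. For 810 stretches (30.6%) the first 3 lists held LAD without a break over the stretch and 50 kb on either side. For comparison, the stretches absent from the Tmem120a knockdown list alone had 82.4% of the same flanks in adipocyte LADs.

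The same rule was applied with each other list as the one lacking the stretch. The double knockdown list lacked the most, 6.97% of the LAD length shared by the other 3 lists, and it had the highest share of stretches with its own LAD on both sides. The Tmem120a knockdown list lacked 1784 stretches of 44.1 Mb, or 4.58%, with its own LAD on both sides of 38.7%. The preadipocyte list lacked 1139 stretches (3.26%), with 22.7% on both sides. The adipocyte list lacked 964 (2.85%), with 9.13% on both sides. The median length was nearly the same in each case, between 20.5 and 20.8 kb.

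Further counts bear on this order. The double knockdown list was also the list with the most LADs, 6971 against 2542 for adipocytes, 3914 for preadipocytes and 5723 for the Tmem120a knockdown. It also held the most LAD that no other list held, 2327 stretches of 67.02 Mb by the same 8 kb minimum, against 1610 stretches of 42.9 Mb for the Tmem120a knockdown, 1471 of 46.9 Mb for preadipocytes and 1265 of 44.3 Mb for adipocytes. The length that it alone held was thus close to the 68.9 Mb that it alone lacked. The part that the number of LADs in a list has in these lengths was not tested.

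By the rule the stretches share no base with those that the Tmem120a knockdown list alone lacked, and 328 of them (12.4%) had such a stretch within 20 kb. Stretches in LADs of preadipocytes and adipocytes that both knockdown lists lacked were a separate set of 1172, summing to 32.4 Mb.

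**Figure D2:**
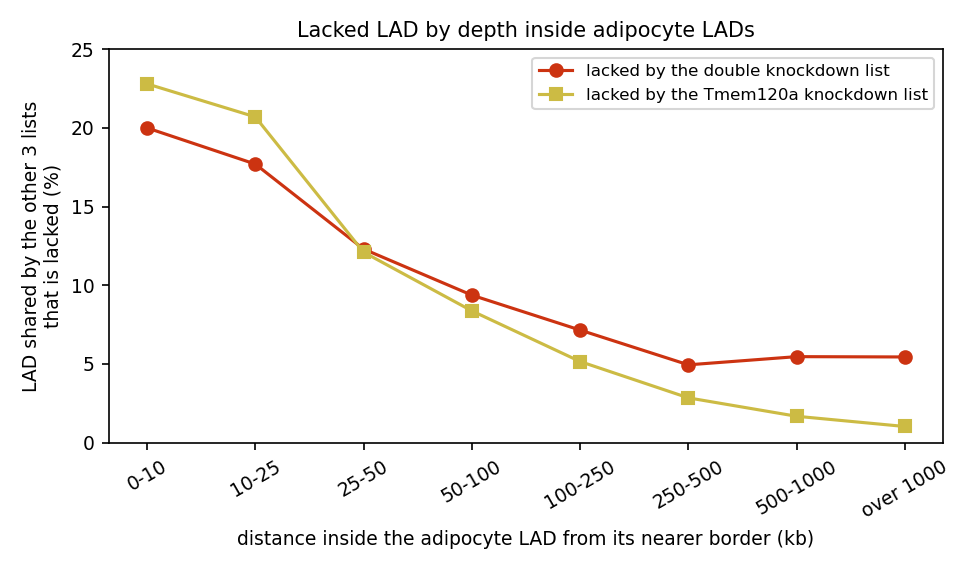
Share of the LAD length shared by the other 3 lists that the double knockdown list (circles) or the Tmem120a knockdown list (squares) lacked in stretches of at least 8 kb (y axis, %), by distance inside the adipocyte LAD from its nearer border (x axis, kb classes). The lines lie close together to 100 kb and part further in. Beyond 250 kb the double knockdown stays near 5% and the Tmem120a knockdown falls to 1.02%.

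Depth inside the adipocyte LAD separated the double from the single knockdown. In the outermost 10 kb of adipocyte LADs the double knockdown list lacked 20% of the shared LAD and the Tmem120a knockdown list 22.8%. Between 25 and 50 kb the values were 12.3% and 12.1%. Beyond 250 kb the double knockdown levelled off, with 4.94% at 250 to 500 kb, 5.46% at 500 to 1000 kb and 5.44% further in. The Tmem120a knockdown went on falling over the same classes, to 2.84%, 1.67% and 1.02%. More than 1000 kb from a border the double knockdown stretches thus summed to 10.9 Mb and those of the Tmem120a knockdown to 1.95 Mb.

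The same held on autosomes alone. Beyond 1000 kb from the border of an autosomal adipocyte LAD, the double knockdown list lacked 4.59% and the Tmem120a knockdown list 0.912%. Within 50 kb of the border they lacked 15% and 17.3%. By count, 1645 stretches (62.1%) lay at least 100 kb inside their adipocyte LAD, 268 (10.1%) began or ended at its border, and 8 took up a whole adipocyte LAD.

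Adipocyte LADs under 300 kb lost a larger share of their length than longer ones, which held most of the stretches. Adipocyte LADs under 100 kb lost 22.3% of the LAD length shared by the first 3 lists, those of 100 to 300 kb 11.7%, those of 300 to 1000 kb 7.76%, those of 1000 to 3000 kb 5.84%, and those of at least 3000 kb 6.15%. Of the 79 LADs in the longest class, 78 held a stretch, against 201 of the 1257 in the shortest class. Overall 1004 of 2542 adipocyte LADs (39.5%) held at least 1 stretch, 516 of them held exactly 1, and 36 held 10 or more, which together took 532 stretches (20.1%). Within 50 kb of another stretch lay 636 (24%), and the share that random placement would give was not computed.

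**Figure D3:**
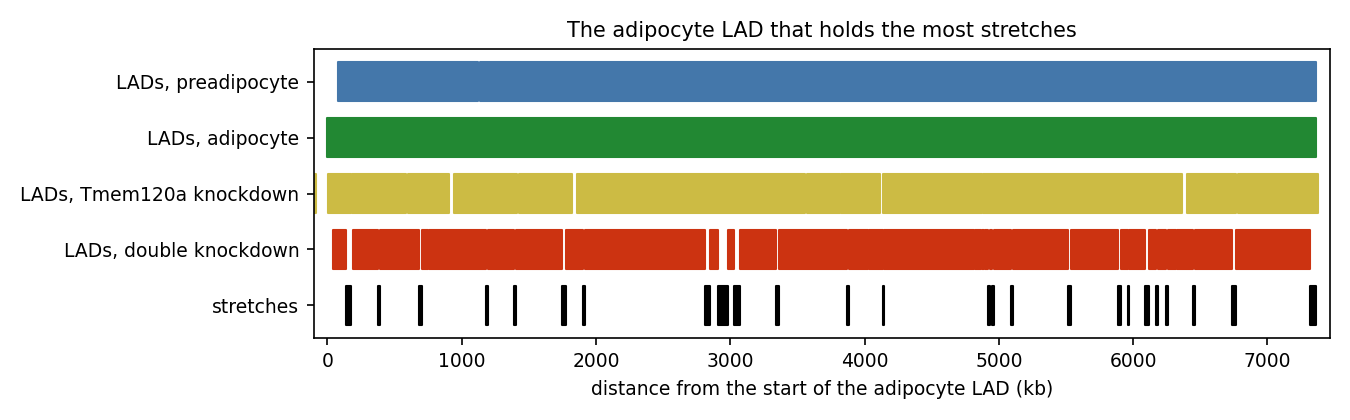
LADs of the 4 lists and the stretches (rows) along the adipocyte LAD with the most stretches, drawn to scale from its start (x axis, kb). The adipocyte row is 1 unbroken bar, the preadipocyte row 2 bars, and the double knockdown row is broken into 31 bars, with most of its gaps at stretches and the last of the 25 stretches beyond its last bar.

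The adipocyte LAD with the most stretches lay at chr1:100089679-107453345, is 7364 kb long and held 25 of them, drawn in the map of that LAD. The preadipocyte list covered 98.7% of it with 2 LADs, the Tmem120a knockdown list 97.0% with 12 LADs, and the double knockdown list 91.2% with 31 LADs. The 25 stretches summed to 559 kb (7.59%) and ranged from 8.50 to 73.2 kb with a median of 19.1 kb. Only 5 protein-coding genes lie in this LAD or reach into it. They are Slco6d1, an organic anion transporter, Cntnap5b and Cdh20, adhesion proteins, Rnf152, a ubiquitin ligase, and Pign, an enzyme of glycosylphosphatidylinositol anchor synthesis, which runs past its end.

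**Figure D4:**
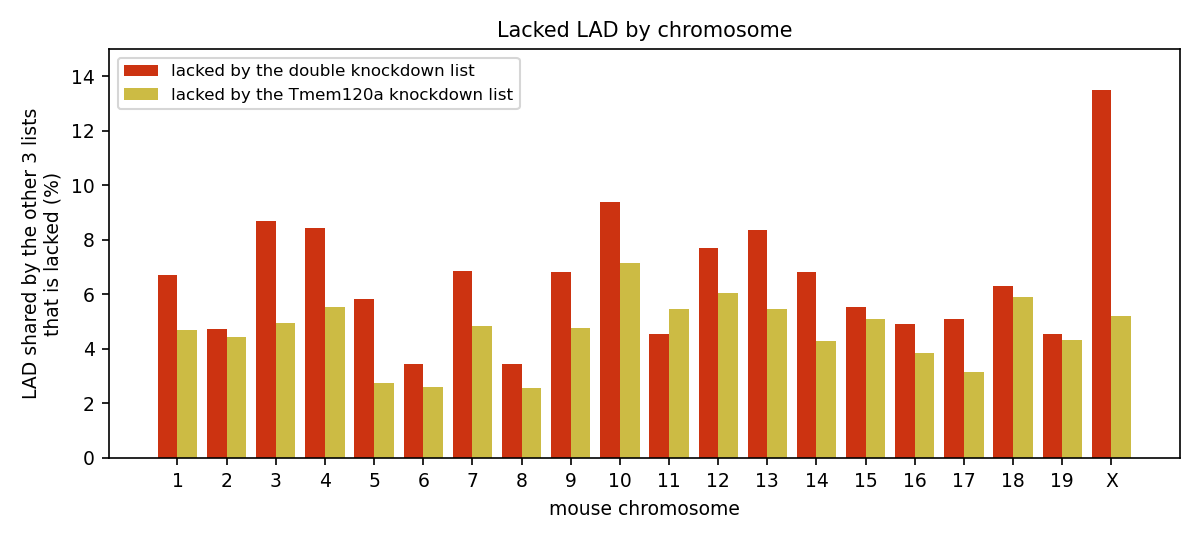
Share of the LAD length shared by the other 3 lists that the double knockdown list (dark bars) or the Tmem120a knockdown list (light bars) lacked in stretches of at least 8 kb (y axis, %), for each autosome and X (x axis). The X bar of the double knockdown, 13.5%, stands above that of all 19 autosomes, whose highest is 9.38%.

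The X chromosome lost more than any autosome in the double knockdown, as the bars by chromosome show. It held 402 stretches (15.2% of all) of 11.9 Mb, or 13.5% of its shared LAD, against 6.28% over the autosomes, which ranged from 3.43% on chromosome 8 to 9.38% on chromosome 10. The Tmem120a knockdown list lacked 5.22% of the shared LAD on X and 4.51% on autosomes. Chromosome Y gave 33.8%, but of 1.33 Mb of shared LAD only. On autosomes the double knockdown lacked more than the Tmem120a knockdown in 18 of 19, the exception being chromosome 11 with 4.53% against 5.48%.

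The loss on X reached all depths of its LADs. On X the double knockdown list lacked 19.4% of shared LAD within 50 kb of an adipocyte LAD border, 13.1% at 50 to 250 kb, 11.9% at 250 to 1000 kb and 14.7% beyond. The Tmem120a knockdown list lacked 12.9%, 7.39%, 3.16% and 2.31% in the same classes. X stretches had a median of 25.2 kb against 20.2 kb on autosomes, and 240 (59.7%) had double knockdown LAD on both sides against 47% on autosomes. Their GC content was 38.2%, against 38.3% in the X sequence that lay in LADs of all 4 lists. The longest X LAD measured 5660 kb by the adipocyte list, 4292 kb by the preadipocyte list, 1936 kb by the Tmem120a knockdown list and 1018 kb by the double knockdown list. On autosomes the longest LAD measured 10031, 10495, 5848 and 4134 kb in the same order of lists, so it was also shorter in both knockdown lists.

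Of the 10 longest stretches, 4 met a protein-coding gene, against 26.7% of all stretches. The longest, 157 kb at chr10:29369749-29526519, had double knockdown LAD on both sides and no protein-coding gene, and the nearest was Rspo3, a secreted Wnt pathway agonist, 114 kb away. The next, 156 kb at chr5:97955917-98112190, lay 69.9 kb from Gk2, a testis glycerol kinase. The third, 147 kb at chr3:114922002-115069345, lay 93.4 kb from Olfm3, an olfactomedin. The genes met were Ftmt, Il1rapl1, Ccdc85a and Kcnt2.

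These long stretches differed in their surroundings. At chrX:59191828-59307287, a stretch of 115 kb lay 676 kb inside its adipocyte LAD, and all 4 lists held LAD over the full 50 kb on both sides of it. At chr5:80497086-80608341, a stretch of 111 kb had 100% of its flanks in adipocyte and Tmem120a knockdown LADs, 78.3% in preadipocyte LADs and 50% in double knockdown LADs. Among stretches with double knockdown LAD on neither side, the longest covered part of Fam5c at chr1:148565105-148670133. Its flanks were 100% in preadipocyte and adipocyte LADs, 7.59% in Tmem120a knockdown LADs and 5.50% in double knockdown LADs.

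Gene content was low, as in the rest of the shared LAD. A protein-coding gene body was met by 706 stretches (26.7%), a gene start lay in 201 (7.59%), and 404 (15.3%) lay wholly within gene bodies. Stretches absent from the Tmem120a knockdown list alone met a gene in 32.6%, and those absent from the adipocyte list alone in 51%. The genes that met a stretch numbered 584, which is 2.61% of all 22367 protein-coding genes and 13.1% of the 4462 that met LAD shared by the first 3 lists. By length, 5.82% of gene body in shared LAD lay in stretches, 7.15% of exon sequence, 6.28% of sequence within 20 kb of a gene start and 7.32% of sequence outside genes.

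Most genes in shared LAD kept their LAD in the double knockdown. Of 3460 genes that lay wholly in LADs of the first 3 lists, 3192 (92.3%) did so in the double knockdown list as well and 108 (3.12%) had no LAD there. Gene starts were lost in 227 of 3991 (5.69%). Genes that met a stretch were long, with a median of 90.7 kb against 4.82 kb for the other genes in shared LAD, and a longer gene has more length in which to meet one. Of genes under 5 kb 4% met a stretch and of genes of at least 300 kb 46.4%, while the share of body lost was 3.86% and 4.78%, and highest, 8.32%, for genes of 20 to 100 kb.

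Wholly inside a stretch lay 100 genes, and those in the longest stretches included regulators of transcription, splicing and vesicle traffic. Pou3f4, a POU domain transcription factor of the ear and brain (chrX:108009729-108010910), lay in a stretch of 79.3 kb. By the choice of stretches such genes were 100% in LADs of the first 3 lists and 0% in the double knockdown list, exons, introns and UTRs alike. Rbm11, an RNA-binding splicing regulator, lay in a stretch of 71.8 kb, Rab9b, a small GTPase of vesicle traffic, in 1 of 74.4 kb, and Zfp945, a zinc finger protein, in 1 of 47.0 kb.

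Others of these genes have varied roles. Serpinb7, a protease inhibitor best known from skin (chr1:109296232-109349266), lay whole in a stretch of 82.7 kb with its body of 53.0 kb. Akr1c20, an aldo-keto reductase, and Gca, a calcium-binding protein of leukocytes, lay in stretches of 55.2 and 59.5 kb. Crygf, a lens crystallin, Slfn4, a schlafen family gene of myeloid cells, and Ftmt, mitochondrial ferritin, lay in stretches of 54.9, 45.0 and 138 kb. Paired neighbours were Psg20 and Psg21, pregnancy-specific glycoproteins, in 1 stretch of 55.9 kb, and Olfr2 and Olfr713, odorant receptors, in 1 of 71.8 kb. Vmn2r52, a pheromone receptor, and Spin2, of the spindlin family, lay in stretches of 47.1 and 45.0 kb. A further 8 of the genes wholly inside the longest stretches have predicted-gene (Gm) symbols only.

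**Figure D5:**
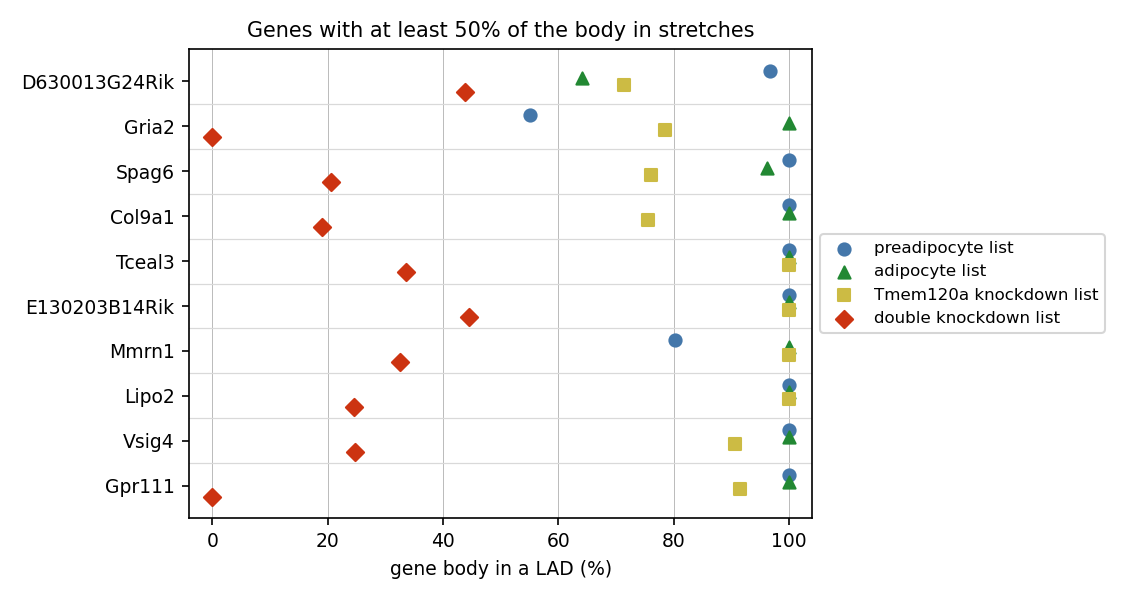
Share of the gene body in a LAD of each of the 4 lists (x axis, %) for the 10 genes with the most body in stretches among those with at least 50% but not all of the body in them (rows). The double knockdown diamonds lie between 0 and 44.5%, left of every other symbol of the same gene.

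A further 51 genes had at least 50% but not all of the body in stretches, and the plot of gene bodies gives the 10 with the most length. Gria2, an AMPA type glutamate receptor subunit (chr3:80488858-80606713), was in LADs over 55.1% of its body by the preadipocyte list, 100% by the adipocyte list, 78.5% by the Tmem120a knockdown list and 0% by the double knockdown list. Other genes are given in this order of lists, and the part of each body inside stretches was fixed by how these were chosen. Col9a1, a cartilage collagen chain (chr1:24184449-24259577), gave 100%, 100%, 75.6% and 19.0%. Gpr111, an adhesion G protein-coupled receptor (chr17:42845885-42879128), gave 100%, 100%, 91.6% and 0%. Spag6, a sperm flagellum protein, gave 100%, 96.2%, 76.0% and 20.6%, and Vsig4, a complement receptor of macrophages, 100%, 100%, 90.6% and 24.7%. In these 5 genes the single knockdown list also held less LAD than the adipocyte list.

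In other genes the single knockdown list held the body in full. Tceal3, of the elongation factor A-like family (chrX:133125381-133202917), was 100% in LADs of the first 3 lists and 33.6% in the double knockdown. Lipo2, a lipase family gene, was likewise at 100% in 3 lists and 24.5% in the double knockdown. Mmrn1, a platelet and endothelial multimerin, gave 80.2%, 100%, 100% and 32.5%.

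Chemosensory receptor genes are numerous in LADs. Among olfactory receptors 22 of the 960 in shared LAD (2.29%) met a stretch, among vomeronasal type 1 receptors 7 of 181 (3.87%), among type 2 receptors 7 of 117 (5.98%), and among bitter taste receptors 1 of 27 (3.70%), Tas2r138. The share of body length lost was 3.55%, 1.74%, 4.43% and 2.8% in these families, against 5.82% over all gene bodies. Many of these genes are short, and among all genes under 5 kb in shared LAD 4% met a stretch and 3.86% of body was lost. Type 2 vomeronasal genes have a median of 23.7 kb, and of genes of 20 to 100 kb 18.5% met a stretch and 8.32% of body was lost. Among the olfactory genes, Olfr18 was 100% in LADs of the first 3 lists and 36.9% in the double knockdown. Vmn2r60 gave 100% in the first 3 and 50.3% in the double knockdown. These families stand in arrays of near copies, and how reads that match several copies were placed is not given in the sources used here. None of the 37 defensins, antimicrobial peptides, nor of the 19 keratin family genes or the 7 chemokine family genes in shared LAD met a stretch.

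Neuronal families hold many long genes. Of all genes in shared LAD 13.1% met a stretch, and 5.82% of gene body was lost. At 100 to 300 kb 32% of genes met a stretch and 7.5% of body was lost. At 300 kb or more the values were 46.4% and 4.78%. At 20 to 100 kb they were 18.5% and 8.32%. Among cadherins and protocadherins 9 of 28 (32.1%) met a stretch, with 9.36% of the body length in shared LAD lost. Their median of 26.1 kb is over all annotated members, while these 28 hold 4.56 Mb of body in shared LAD. The classes of 100 kb and more thus also apply to them. Pcdh9, a protocadherin with 195 kb of body in 4 stretches, gave 53.8%, 93.1%, 38.0% and 2.63%. Among glutamate and GABA receptors the count was 9 of 28, with 3.74% of body lost. Grid1, a delta type glutamate receptor with 71.6 kb in 4 stretches, gave 84.2%, 100%, 92.7% and 86.5%.

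Shares of body lost varied among other neuronal genes. Over all genes in shared LAD 13.1% met a stretch and 5.82% of gene body was lost. Among neuronal adhesion genes 9 of 28 met a stretch, with 3.34% of body lost. Annotated members of that list have a median of 307 kb. Of genes of at least 300 kb 46.4% met a stretch, with 4.78% of body lost. Lrrc4c, a netrin-G ligand, had 265 kb in 8 stretches and gave 66.1%, 92.7%, 58.6% and 42.6%, and Odz3, a teneurin, 100%, 98.1%, 68.3% and 51.4%. Of potassium channels 7 of 22 (31.8%) met a stretch, with 6.48% of body lost. Their median of 27.5 kb is over all annotated members, while these 22 hold 5.03 Mb of body in shared LAD. Of genes of 20 to 100 kb 18.5% met a stretch, with 8.32% of body lost. Of genes of 100 to 300 kb 32% did, with 7.5% of body lost. Kcnt2, a sodium-activated channel with 159 kb in 3 stretches, gave 97.9%, 100%, 92.0% and 46.6%, and Kcnh8 gave 88.8%, 100%, 100% and 52.2%. Of 2 semaphorin and plexin genes in shared LAD 1 met a stretch, with 22% of body lost over the pair. It was Sema3d, an axon guidance cue, with 50.4%, 83.1%, 36.1% and 18%.

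Among interleukin and interferon genes 3 of 18 met a stretch, and 20.5% of their body in shared LAD was lost, beside 13.1% and 5.82% over all genes. The length lost rests on Il1rapl1, which carries the family symbol but is a synaptic adhesion receptor. It had 374 kb of body in 7 stretches on X and gave 66.2%, 100%, 81.4% and 39.4%. Il12rb2, the interleukin 12 receptor chain, gave 35.7%, 55.3%, 65.3% and 14.6%, and Il1rapl2 100%, 100%, 96.3% and 92.7%.

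Cytochrome P450 enzymes, serpins and proteases are given with the share of body in shared LAD that lay in stretches. That share was 5.82% over all genes and 8.32% over genes of 20 to 100 kb. By count, 13.1% of all genes in shared LAD met a stretch, and 18.5% of those of 20 to 100 kb. Annotated serpins have a median of 11.1 kb. At 5 to 20 kb 7.55% of genes met a stretch and 4.77% of body was lost. Of P450 enzymes 7 of 51 (13.7%) met a stretch, with 8.57% of body lost, among them Cyp2b9, a steroid and drug hydroxylase, at 100%, 100%, 64.4% and 9.51%, Cyp2j12 at 100% in 3 lists and 44.2%, and Cyp2c55 at 100%, 100%, 91.3% and 32.6%. Of serpins 5 of 22 (22.7%) did, with 16.4% of body lost, of which Serpinb7 alone gives 53.0 of 75.4 kb, and Serpina7, thyroxine-binding globulin, and Serpinb6e lay whole in stretches. Of Adam, Adamts and Mmp proteases 6 of 20 (30%) did, with 11.3% of body lost, of which Adam22 alone gives 94.3 of 129 kb. Adam22, a synaptic member without protease activity, gave 48.9%, 93.5%, 97.0% and 47.8%, and Mmp1a, a collagenase, 100%, 100%, 93.3% and 27.5%.

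Matrix and muscle genes were few in shared LAD, and stand beside 13.1% of all genes there that met a stretch (32% of those of 100 to 300 kb) and 5.82% of gene body lost. Of 7 collagens 3 met a stretch, with 17.1% of body lost, and beside Col9a1 they were Col11a1, a cartilage fibril chain, at 93.8%, 100%, 83.2% and 43.2%, and Col19a1 at 86.5%, 100%, 89.9% and 81.3%. Of 6 sarcomere and myogenic genes 5 met a stretch, with 126 kb or 18.6% of body lost. Myh4, a fast myosin heavy chain, gave 38.1%, 100%, 100% and 0%, and Ttn, the giant sarcomere protein titin, 98.9%, 91.0%, 87.3% and 81.2%. Myo18b, an unconventional myosin, gave 100%, 100%, 73.0% and 75.4%, so its double knockdown share was no lower than in the single knockdown. The list also holds Unc13c, which acts in synaptic vesicle priming, at 54.1%, 100%, 68.9% and 39.2%, and it alone gives 60.9 kb of the length lost. The remaining member, Myh8, another myosin heavy chain, gave 100%, 84.3%, 72.6% and 91.0%, so its double knockdown share was above that of adipocytes. The study discusses several of these muscle genes from the same cells, so the list is not independent of the data.

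In the remaining lists the share of genes that met a stretch ranged from none to 19.5%. Over all genes in shared LAD 13.1% met a stretch and 5.82% of gene body was lost. Of Zfp zinc fingers 8 of 41 (19.5%) met a stretch with 10.8% of body lost, of which Zfp536 alone gives 95.1 of 166 kb. Zfp536, a neuronal repressor, gave 87.7%, 84.8%, 62.7% and 57.1%. Of solute carriers 9 of 55 (16.4%) met a stretch with 5.03% of body lost, led by Slc7a14 at 100% in 3 lists and 55.5%. Of glucuronosyl and sulfotransferases 1 of 24 did, Sult3a1, with 0.434 kb. None of the 32 annotated adipogenic and lipid genes met LAD shared by the first 3 lists, nor a stretch, and neither of the 2 Wnt pathway genes in shared LAD did.

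Of the 392 microRNA genes in shared LAD, 29 (7.40%) lay in stretches. Of these 29, 14 had mature sequences in RefSeq (build GRCm38.p6), 27 sequences in all. The share of 7.40% is near the 6.97% of all shared LAD length that the stretches make up. The sequences printed were picked after their positions were seen, from clusters within 1 stretch and from single genes known in other tissues, with the seed (bases 2 to 8) in capitals. The Mir106a to Mir363 cluster, related to the oncogenic miR-17 family, lies in 1 stretch of 17.4 kb at chrX:50088121-50105532 with double knockdown LAD on both sides. Its 6 genes include a pair that share the seed AAAGUGC and a pair that share the seed AUUGCAC:
mmu-miR-106a-5p: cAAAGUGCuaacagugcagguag
mmu-miR-20b-5p: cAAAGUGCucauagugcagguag
mmu-miR-92a-3p: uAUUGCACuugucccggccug
mmu-miR-363-3p: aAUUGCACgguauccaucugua
mmu-miR-18b-5p: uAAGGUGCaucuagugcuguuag
mmu-miR-19b-3p: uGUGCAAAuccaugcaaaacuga
A stretch of 90.1 kb at chrX:63951800-64041856 holds Mir743, Mir743b, Mir742 and Mir883a, and the first of these share a seed:
mmu-miR-743a-3p: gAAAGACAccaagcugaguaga
mmu-miR-743b-3p: gAAAGACAucaugcugaauaga
Single microRNA genes in stretches included Mir137, known from neurons (33.5 kb, chr3:118103704-118137226), and Mir216b and Mir217, known from pancreas, in separate stretches of 83.4 kb (chr11:28565143-28648562) and 28.8 kb (chr11:28659211-28687977):
mmu-miR-137-3p: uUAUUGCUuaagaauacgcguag
mmu-miR-216b-5p: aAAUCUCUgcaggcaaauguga
mmu-miR-217-5p: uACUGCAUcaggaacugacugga

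The stretches with these microRNAs differed in their surroundings. Around the Mir106a to Mir363 stretch, 100% of the 50 kb flanks lay in preadipocyte, adipocyte and double knockdown LADs and 50.8% in Tmem120a knockdown LADs. Around the Mir137 stretch all 4 lists were at 100%. Around the Mir216b stretch the values were 89.4%, 90.3%, 83.7% and 17.8%. Around the Mir217 stretch the double knockdown list had no LAD within 50 kb, and the others had 50%, 50.9% and 44.3%.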

How the data were processed

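The authors sequenced Dam-methylated DNA from 8 libraries, mapped the reads to mm9 (the submitters' processing notes name BWA and limma), took a log ratio of LaminB1-Dam to Dam per DpnI fragment and segmented it with DNAcopy. The deposited lists hold LAD positions only, and each was assigned to its condition by its abbreviation. Columns of the authors' differential regions were not used. Printed starts are the listed starts plus 1, as for a browser. LAD borders fell at GATC sites of the mm9 sequence (NCBIM37) in 96.5% to 98.8% of cases by list. Genes came from GENCODE vM1. Interval arithmetic used numpy 2.4.6 in Python 3.11.15, was tested on simulated intervals, and plots used matplotlib 3.10.9. No tests were made, as each condition has 1 list. Named stretches were the 10 longest, the 3 longest by placement and the adipocyte LAD with most stretches. Named genes were those wholly inside stretches (longest stretch first, up to 25) and those with at least 50% of the body inside (10 by length). From each of 23 lists up to 3 members were named, out of the 3 with most overlap. In the sarcomere and myogenic list all 5 that met a stretch were named. The stretches and lists were chosen with earlier results of these data known. Alternatives varied the minimum length, gaps, LAD length, chromosomes, joining and the definitions of touching and of meeting a gene.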

Additional observations from a re-analysis of the deposited data

How the results depend on the processing

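The number of stretches was 3422 at a minimum of 4 kb, 787 at 30 kb, 987 with gaps under 50 kb closed in each list, 1578 with LADs of at least 100 kb only, 2234 without X and Y, and 2507 with stretches under 20 kb apart joined. In the same order of settings the total length was 73.4, 37.5, 46.1, 91.7, 56.5 and 70.5 Mb, and the median length 15.9, 41.1, 39.7, 36.6, 20.2 and 22.2 kb. Stretches with double knockdown LAD on both sides made up 53.6%, 47.6%, 24.5%, 41.8%, 47% and 51.9%, and 51.8% where LAD within 5 kb counted as touching. The share meeting a protein-coding gene was 25.9%, 29.4%, 32.7%, 32.6% and 27.5% in the first 5 settings, and 7.59% where a gene start had to lie inside. GC content was 38.9% at 30 kb, 39.2% with gaps closed, 39.5% without X and Y and 39.5% as a mean over stretches. Closing gaps removes stretches that are short gaps in the double knockdown list, by construction, and a higher minimum removes the short ones. The causes of the other shifts were not tested. No paired analysis was possible because each condition has 1 LaminB1-Dam library and no test was made. With no replicate, depth or signal in the lists, neither the confidence of a single stretch nor the size of the change in lamina contact can be given, and a stretch just under the calling threshold cannot be told from one far below it.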

Other observations

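Other kinds of annotated gene were met by stretches at rates around or below that of protein-coding genes in shared LAD (13.1%). Of long intergenic noncoding RNAs 18 of 118 in shared LAD (15.3%) met a stretch, of processed transcripts 51 of 442 (11.5%), of pseudogenes 178 of 2246 (7.93%), of small nuclear RNAs 36 of 424 (8.49%) and of small nucleolar RNAs 31 of 574 (5.40%). These classes differ in length, with medians over all annotated members of 8.45, 5.59, 0.649, 0.107 and 0.127 kb. Of protein-coding genes under 5 kb in shared LAD 4% met a stretch, and stretches make up 6.97% of all shared LAD length.

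A few genes outside the lists had long parts of the body in stretches, and they were picked after their values were seen. Trdn, the muscle triad protein triadin, had 195 kb in 4 stretches and was in LADs over 100% of its body by the preadipocyte and adipocyte lists, 64.7% by the Tmem120a knockdown list and 15.3% by the double knockdown list. Cadm2, a synaptic adhesion protein, had 159 kb in 5 stretches and gave in the same order of lists 51.6%, 100%, 83.1% and 48.5%. Nalcn, a sodium leak channel, had 132 kb in 3 stretches and gave 60.9%, 93.4%, 78.5% and 27.4%.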
